A study of Mus musculus with 18 samples.

Results

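Spleen RNA was compared between ICR mice given AOS at 10 mg/kg without a high fat diet and control ICR mice, with 3 libraries in each group. ICR is an outbred laboratory strain, and all of these mice were 10 weeks old per the labels. AOS is not spelled out in the labels and is read here as alginate oligosaccharide, short chains made by cutting the seaweed polysaccharide alginate. A gene was a member if its mean reached 1 FPKM or more in either group, where FPKM is fragments scaled by transcript length and by the library's total. They numbered 12722 of the 19326 rows of the table, and 12228 of them reached 1 FPKM in both groups, 187 in AOS only and 307 in control only. Just inside the threshold, 167 members had a higher group mean of 1 to 1.1 FPKM, and just outside it 169 genes had one of 0.9 to 1 FPKM. The series also holds a high fat diet group (HFD), HFD with AOS at 10 mg/kg (HFD+AOS) and a pair of HFD groups given faecal microbiota transplants, all in the same strain, age and organ. Whether each library is a separate animal, cage or day is not stated in the labels, so p-values measure the spread between these libraries, which may be technical.

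The spleen filters blood in its red pulp, where macrophages remove old red cells and, in mice, erythroid cells, megakaryocytes and granulocytes are also made. In its white pulp, B cells and T cells meet antigen, form germinal centres and give rise to plasma cells. A plasma cell secretes antibody at a high rate, and its chaperones, translocon and vesicle coats are induced largely through the transcription factor Xbp1. Interferon gamma, made by T cells and NK cells, acts in part through the transcription factor Irf1 to raise class I antigen presentation, and type I interferon acts through Stat2 and Irf9.

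No member passed the threshold of 0.05 on the adjusted p of limma (Benjamini-Hochberg over 12969 genes), in either direction, and the lowest adjusted p was 0.0851. The background of calls is therefore 0.0% higher and 0.0% lower at that threshold. At an unadjusted p under 0.05, 1312 members (10.3%) were higher and 677 (5.32%) were lower with AOS. All 3 AOS values lay above all 3 control values for 1497 members (11.8%), and below them for 662 (5.2%). The absence of adjusted calls did not hold under every setting. A fit to the 6 libraries alone gave 0 higher and 1 lower, the gene Kap described below. Leaving out AOS 2 gave 65 higher and 4 lower, leaving out control 2 gave 11 higher and 3 lower, and leaving out control 3 gave 91 higher and 152 lower. Weighting the libraries by limma's array weights gave 2907 higher and 1961 lower, with weights whose estimation did not converge and which rest mostly on control 2. An exact permutation test of 3 against 3 cannot give a p under 0.1. The median log2 fold change of the members was 0.05, with the 5th percentile at -0.39 and the 95th at 0.37, and 62.4% of members had a positive one. When libraries were instead scaled by median ratios that share was 47.7%, and the calls at an unadjusted p under 0.05 were 790 higher and 967 lower. All counts below from the main fit are read against these shares, and genes are given by their values, since none passed the adjusted test. Counts under another setting are read against all members in that setting. At an unadjusted p under 0.05 these were 914 higher and 407 lower without AOS 1. They were 1337 and 750 without AOS 2 and 807 and 328 without AOS 3. Without control 1, 2 or 3 they were 875 and 469, 1313 and 592, and 2064 and 1083 in turn. The fit to the 6 libraries alone gave 836 and 390.

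The make-up of the libraries varied as well. Haemoglobin genes took 23.3%, 25.6% and 17.2% of summed FPKM in the AOS libraries, against 34.4%, 27.1% and 21.5% in the control libraries, and these ranges overlapped. The control libraries also lay apart from each other: control 1 was highest in neutrophil and red cell genes, and control 2 was highest in testis genes. In bulk tissue, fewer cells of a type and less RNA per cell cannot be told apart. The plot of gene lists by library shows how the 6 libraries lay for 22 of the 48 lists.

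**Figure D1:**
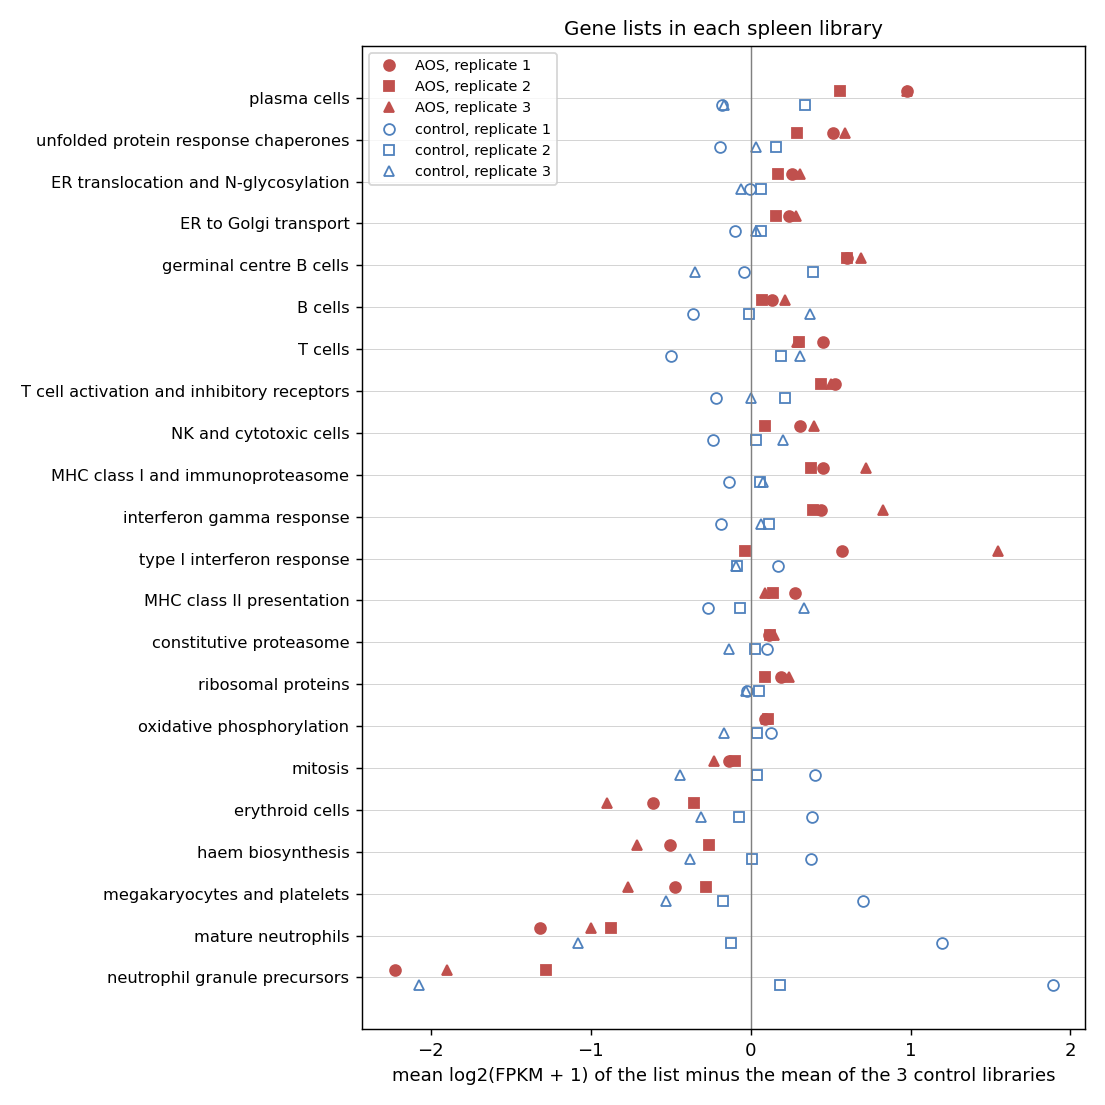
Mean log2(FPKM + 1) of each gene list in each library, less the mean of the 3 control libraries, on the horizontal axis. Filled red symbols are AOS and open blue symbols are control, with a circle, square and triangle for replicates 1, 2 and 3. The AOS symbols lie right of all control symbols for the plasma cell list and left of them for the red cell list, while the 3 control symbols of the neutrophil lists are far apart.

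Genes of plasma cells lay higher with AOS. Of its 15 members, 14 had a higher mean with AOS, 13 had an unadjusted p under 0.05 (86.7%), and 12 did not overlap between the groups, with a median log2 fold change of 0.87. The list mean, on the log2(FPKM + 1) scale, was 5.61, 5.19 and 5.61 in the AOS libraries and 4.46, 4.98 and 4.47 in the control libraries. Every AOS library lay above every control library, and control 2 was the closest. Leaving out any single library kept the median between 0.74 and 1.01 and the number at an unadjusted p under 0.05 between 11 and 13. With array weights the median was 0.52.

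Txndc5 encodes a protein disulfide isomerase of the endoplasmic reticulum that is abundant in plasma cells, and lies on chromosome 13 (chr13:38500079-38528824, minus strand, GRCm38). It was at 153, 118 and 178 FPKM in the AOS libraries, against 69.0, 97.1 and 76.7 FPKM in the control libraries. The groups did not overlap, and AOS 2 and control 2 came nearest to each other. Its log2 fold change was 0.87 with a standard error of 0.17 (limma adjusted p = 0.086). Derl3, a component of the channel through which misfolded proteins leave the endoplasmic reticulum, was at 36.2, 22.1 and 29.7 FPKM with AOS and 7.16, 18.2 and 7.09 FPKM in control. Again the 2 sets did not overlap, with control 2 the highest control, and the log2 fold change was 1.46 with a standard error of 0.34 (limma adjusted p = 0.111).

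Mzb1, a chaperone of antibody assembly in B cells and plasma cells, averaged 422 ± 79.4 FPKM with AOS and 209 ± 56.2 FPKM in control (SD, n = 3 each). Jchain, which links antibody units into polymers, was at 966, 838 and 903 FPKM with AOS and 356, 759 and 352 FPKM in control. Control 2 reached close to the AOS values while the other control libraries lay far below them. Sdc1, the surface proteoglycan CD138 used to identify plasma cells, was at 8.53, 7.09 and 9.57 FPKM with AOS, against 3.63, 5.77 and 3.24 FPKM in control. The transcription factors of the plasma cell state had the same order. Xbp1 averaged 87.7 ± 14.0 FPKM with AOS and 55.3 ± 6.20 FPKM in control, and Prdm1 averaged 3.87 ± 0.83 FPKM with AOS and 1.97 ± 0.49 FPKM in control (SD, n = 3 each). Irf4, needed for plasma cells to form and persist, overlapped: AOS had 28.4, 22.2 and 31.01 FPKM and control had 15.1, 18.9 and 26.0 FPKM. Eaf2, a transcription elongation factor that is high in germinal centre B cells and plasma cells, had 1 of the largest differences among non-overlapping genes, with 43.8, 24.9 and 48.6 FPKM with AOS against 8.85, 14.5 and 5.14 FPKM in control.

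Genes of the secretory pathway lay higher together with those of plasma cells. All 22 members of the unfolded protein response chaperone list had a higher mean with AOS, 17 at an unadjusted p under 0.05, with a median log2 fold change of 0.40. All 31 genes of translocation and N-glycosylation were higher too, 18 at an unadjusted p under 0.05 and with a median of 0.24. For the 26 genes of transport between endoplasmic reticulum and Golgi, all were higher, 13 passed the unadjusted threshold and the median was 0.19. Scaling by median ratios left 17, 7 and 6 members of those 3 lists past it. In HFD against the same 3 control libraries, with no AOS given, the 3 medians were 0.26, 0.10 and 0.13. There 22 of 22, 27 of 31 and 25 of 26 members were higher. In HFD+AOS against HFD the medians were 0.19, 0.20 and 0.08, with 18 of 22, 28 of 31 and 18 of 26 higher. Leaving out AOS 3 left 11, 10 and 9 members past the unadjusted threshold in AOS against control, leaving out control 1 left 11, 15 and 8, and leaving out control 3 left 16, 10 and 13.

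Creld2, a chaperone induced by stress of the endoplasmic reticulum, was at 77.0, 54.3 and 87.6 FPKM with AOS and 25.5, 42.3 and 27.1 FPKM in control. No AOS value reached down to the control range. Hsp90b1, the chaperone GRP94, was at 549, 440 and 603 FPKM with AOS and 250, 350 and 314 FPKM in control. Hspa5, the chaperone BiP, differed less: it was at 288, 269.2 and 320 FPKM with AOS and 195, 268.6 and 257 FPKM in control, with a log2 fold change of 0.29 and a standard error of 0.18 (limma adjusted p = 0.464). Manea, an endomannosidase that trims N-glycans, was at 15.2, 13.7 and 15.3 FPKM with AOS and 9.71, 10.4 and 10.8 FPKM in control, and was among the 10 higher genes named for the smallest p. Sec61a1, the channel subunit of the translocon, averaged 58.3 ± 6.17 FPKM with AOS and 43.4 ± 4.42 FPKM in control (SD, n = 3 each). Lman1, a receptor that carries glycoproteins to the Golgi, was at 31.2, 24.6 and 33.0 FPKM with AOS and 18.5, 19.8 and 18 FPKM in control.

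The ATF4 and CHOP arm of the same stress response did not lie higher as a whole. Of its 17 members, 8 had a higher mean with AOS and 9 a lower one, with a median log2 fold change of -0.02 that was above 0 without AOS 1, AOS 3, control 1 or control 2. Ddit3, which encodes CHOP, averaged 28.7 ± 1.69 FPKM with AOS and 30.0 ± 2.54 FPKM in control, and Atf4 averaged 180 ± 9.31 FPKM with AOS and 197 ± 28.9 FPKM in control (SD, n = 3 each). Phgdh, the first enzyme of serine synthesis, was at 52.6, 43.4 and 55.5 FPKM with AOS and 37.4, 37.7 and 32.9 FPKM in control, above the control range in all 3 libraries.

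**Figure D2:**
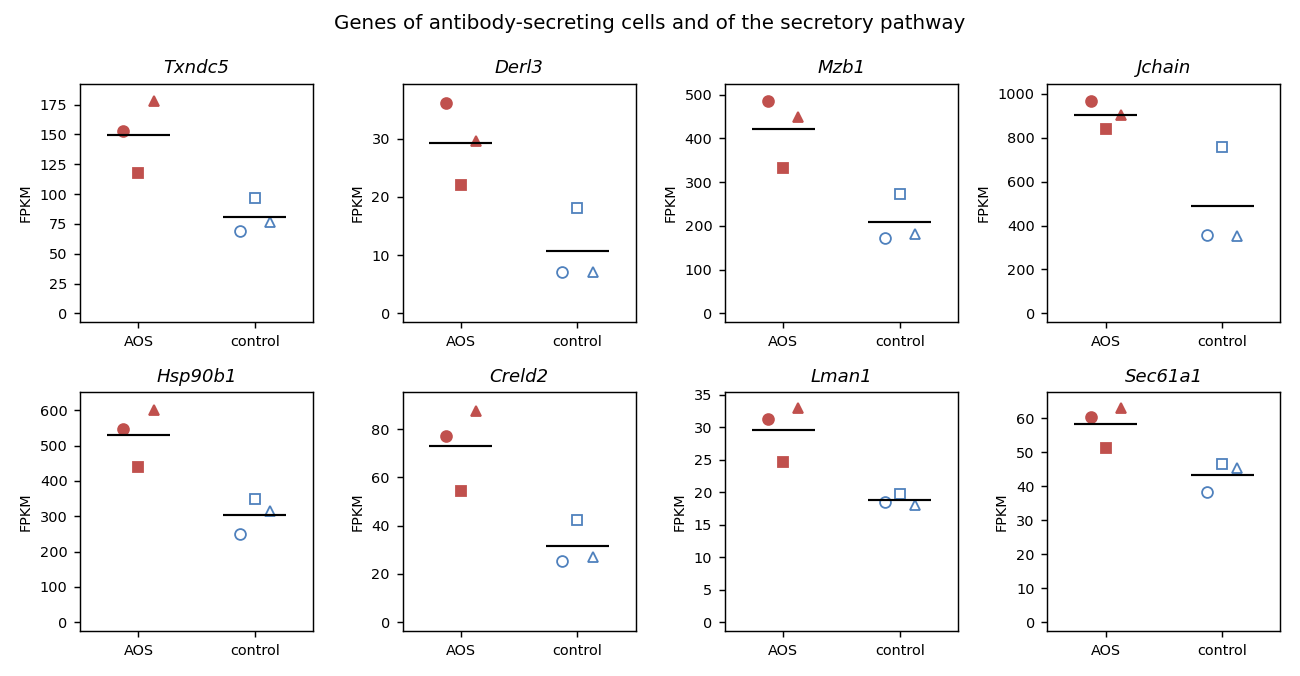
FPKM in each library for 4 plasma cell genes (top) and 4 secretory pathway genes (bottom), with AOS as filled red symbols, control as open blue symbols, replicates 1, 2 and 3 as circle, square and triangle, and the mean as a line. In each panel all AOS values lie above all control values, and control 2 is the highest control library in all 8 panels.

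The promoters of these genes and of the interferon genes were searched for the motifs their known regulators bind, and a few are printed to show the matches counted here. The windows were those of RefSeq on GRCm38.p6, 250 bases before to 50 bases after each start, and only the 250 bases before the start are printed, on the gene's strand. The endoplasmic reticulum stress element (ERSE) was searched as CCAAT, 9 free bases and CCACG, the interferon-stimulated response element (ISRE) as GAAA, 2 free bases and GAAA, and the interferon gamma activated site (GAS) as TTC, 3 free bases and GAA, on both strands. Of 27025 genes with a promoter in the table, 0.137% had an ERSE match, 3.99% an ISRE match and 9.55% a GAS match. Of 18 chaperone list members with a promoter in the table, 8 had an ERSE match (44.4%): Calr, Canx, Creld2, Dnajc3, Hsp90b1, Hspa5, Pdia6 and Syvn1. Of 16 interferon gamma list members with a promoter, 11 had an ISRE match (68.8%) and 8 a GAS match. Of 23 type I interferon list members 12 had an ISRE match (52.2%), and of 15 class I members 4 did (26.7%). A GAS match was in 5 of the 23 type I interferon members (21.7%) and in 1 of the 15 class I members (6.67%), the last under the share of all genes. Members with a match did not all differ between the groups: the unadjusted p of limma was 0.975 for Canx and 0.851 for Rsad2. A match describes the letters in the window and no binding was measured.

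Capitals mark the matches. The windows are Creld2 at chr15:88819396-88819645 (plus strand) and Syvn1, a ubiquitin ligase of the endoplasmic reticulum, at chr19:6046326-6046575 (plus strand), each with an ERSE match. They are followed by Tgtp1, an interferon-induced GTPase, at chr11:48992247-48992496 (minus strand) with a GAS and an ISRE match that do not overlap, Irf1 at chr11:53769764-53770013 (plus strand) with a GAS match, and H2-T23, the non-classical class I gene Qa-1, at chr17:36032702-36032951 (minus strand) with an ISRE match.
Creld2: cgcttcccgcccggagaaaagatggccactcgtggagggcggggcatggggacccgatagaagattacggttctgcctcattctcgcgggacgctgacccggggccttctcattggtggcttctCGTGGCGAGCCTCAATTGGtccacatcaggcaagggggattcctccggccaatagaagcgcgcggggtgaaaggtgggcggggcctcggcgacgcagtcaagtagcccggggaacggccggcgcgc
Syvn1: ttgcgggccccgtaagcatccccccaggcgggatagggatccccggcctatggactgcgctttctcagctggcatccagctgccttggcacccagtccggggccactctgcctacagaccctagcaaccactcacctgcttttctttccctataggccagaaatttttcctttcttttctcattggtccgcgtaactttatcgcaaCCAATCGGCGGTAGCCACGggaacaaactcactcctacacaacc
Tgtp1: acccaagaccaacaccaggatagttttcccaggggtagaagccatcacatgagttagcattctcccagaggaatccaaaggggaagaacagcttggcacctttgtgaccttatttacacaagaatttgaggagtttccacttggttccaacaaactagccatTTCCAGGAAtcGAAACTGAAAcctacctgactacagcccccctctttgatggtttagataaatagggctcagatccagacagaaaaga
Irf1: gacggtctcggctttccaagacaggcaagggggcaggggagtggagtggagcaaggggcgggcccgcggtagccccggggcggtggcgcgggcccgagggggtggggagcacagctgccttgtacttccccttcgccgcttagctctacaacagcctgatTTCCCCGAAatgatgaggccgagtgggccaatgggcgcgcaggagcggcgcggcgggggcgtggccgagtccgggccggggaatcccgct
H2-T23: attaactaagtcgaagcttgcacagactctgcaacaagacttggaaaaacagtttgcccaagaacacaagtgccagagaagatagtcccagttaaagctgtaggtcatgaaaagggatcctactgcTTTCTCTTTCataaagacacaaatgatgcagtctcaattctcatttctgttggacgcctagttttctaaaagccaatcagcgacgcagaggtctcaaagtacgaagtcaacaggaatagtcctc
The ERSE match began 126 bases before the start in Creld2 and 44 bases before it in Syvn1, and the GAS matches began 88 bases before the start in Tgtp1 and 90 bases before it in Irf1.

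Genes of class I presentation also lay higher with AOS. All 18 members of the class I and immunoproteasome list had a higher mean, 16 at an unadjusted p under 0.05 (88.9%), and 14 did not overlap, with a median log2 fold change of 0.52. Leaving out single libraries kept that median between 0.43 and 0.58. H2-Q4, a class I gene of the Qa region (chr17:35379617-35385290, plus strand, GRCm38), was at 152, 125 and 151 FPKM with AOS and 77.3, 96.0 and 93.4 FPKM in control. Class I genes are near-identical to each other, so the split of reads between H2-Q4, H2-K1 and their relatives is uncertain. Tap2, a subunit of the peptide transporter (chr17:34203527-34216321, plus strand), was at 65.7, 60.4 and 64.2 FPKM with AOS and 40.0, 50.2 and 46.5 FPKM in control, with a log2 fold change of 0.47 and a standard error of 0.09 (limma adjusted p = 0.0851). Both genes had no overlap between the groups. Psmb8, an immunoproteasome subunit, averaged 219 ± 26.0 FPKM with AOS and 143 ± 16.7 FPKM in control, and Nlrc5, the transactivator of class I genes, averaged 18.9 ± 2.79 FPKM with AOS and 10.2 ± 1.98 FPKM in control (SD, n = 3 each). H2-D1 overlapped, with 1030.0, 1408 and 1930.0 FPKM with AOS and 1082, 1019 and 1266 FPKM in control. The constitutive proteasome differed by less. Its 23 members were all higher, 7 at an unadjusted p under 0.05, with a median log2 fold change of 0.13, and no member was past that threshold after scaling by median ratios or without AOS 3 or control 3. It was 2 members without AOS 1 and 4 without AOS 2 or control 2, and 2 in a fit to the 6 libraries alone.

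The interferon gamma list followed class I. All 22 members had a higher mean with AOS, 16 at an unadjusted p under 0.05 (72.7%), 12 did not overlap and the median log2 fold change was 0.56. That median was 0.40 without AOS 3 or control 1 and 0.31 with array weights. HFD against the same 3 control libraries, with no AOS given, had a median of 0.47 with 21 of 22 members higher. HFD+AOS against HFD had a median of 0.04 with 13 of 22 higher. Irf1, a transcription factor induced by interferon gamma, was at 68.1, 67.7 and 68.5 FPKM with AOS and 42.0, 54.3 and 58.8 FPKM in control. The AOS libraries were almost equal while the control libraries spread below them. Tgtp1, whose promoter is printed above, was at 29.0, 22.0 and 46.3 FPKM with AOS and 14.1, 11.1 and 13.9 FPKM in control. Gbp10, a guanylate-binding protein of cell-autonomous defence, was at 12.4, 8.03 and 20.03 FPKM with AOS and 2.99, 4.33 and 5.21 FPKM in control, and its counts may share reads with its near copies.

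Type I interferon genes lay higher mostly in 1 library, AOS 3, and by less in AOS 1. Of 32 members 30 had a higher mean with AOS and 16 had an unadjusted p under 0.05, but only 3 did not overlap between the groups. The list mean on the log2(FPKM + 1) scale was 5.20, 4.60 and 6.18 in the AOS libraries and 4.81, 4.55 and 4.54 in the control libraries. AOS 3 stood far above, AOS 1 lay above every control library by less, and AOS 2 lay within the control range. The median log2 fold change of 0.57 was 0.15 without AOS 3, with 5 members at an unadjusted p under 0.05, and 0.98 without AOS 2, with 26 of them. Without control 2, 9 members were past that threshold, and in a fit to the 6 libraries alone 3 were. Irf7, the amplifier of type I interferon production, was at 93.0, 43.6 and 276 FPKM with AOS and 49.97, 36.7 and 30.7 FPKM in control. Ifit3, which binds viral RNA complexes, was at 27.3, 14.4 and 88.8 FPKM with AOS and 15.0, 7.17 and 9.29 FPKM in control. Both overlapped. Ly6a, the surface antigen Sca-1, and Zbp1, a nucleic acid sensor, were among those that did not: Zbp1 had 51.7, 35.3 and 88.4 FPKM with AOS against 24.5, 24.3 and 23.9 FPKM in control. The AOS 3 library was also highest in Tgtp1 and Gbp10.

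**Figure D3:**
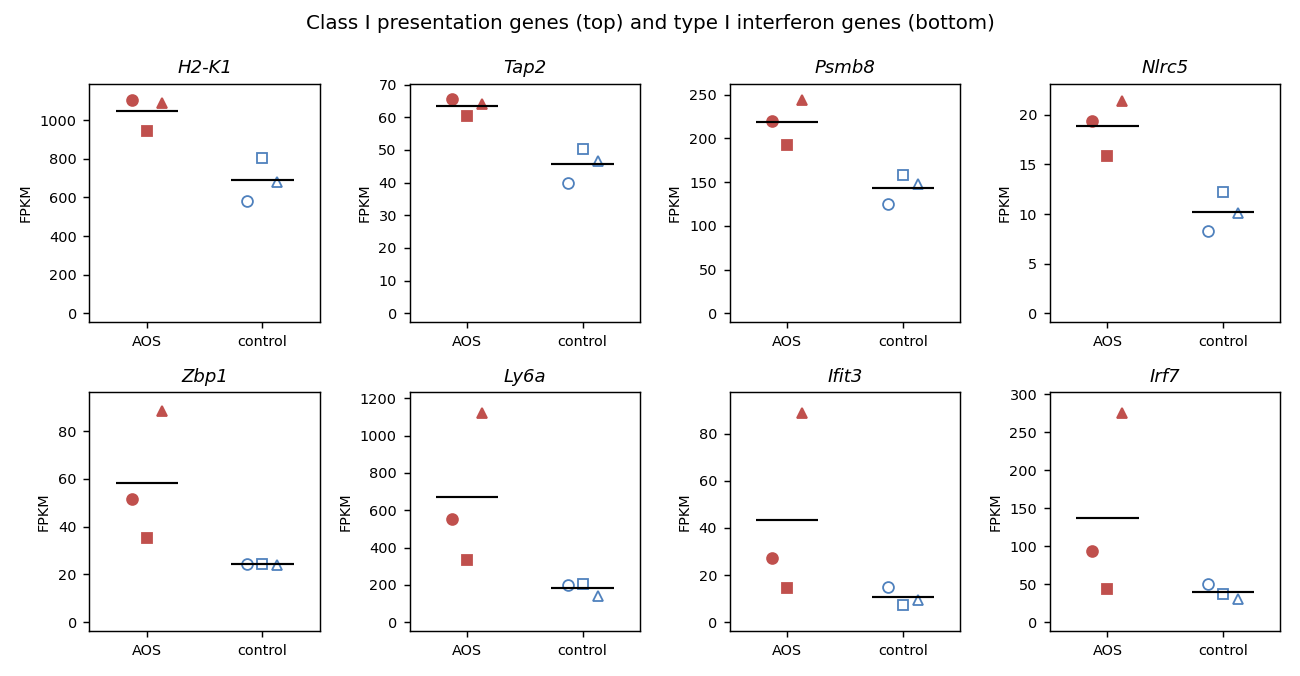
FPKM in each library for 4 class I presentation genes (top) and 4 type I interferon genes (bottom), with AOS as filled red symbols, control as open blue symbols, replicates 1, 2 and 3 as circle, square and triangle, and the mean as a line. Class I genes have all AOS values above control, whereas in the lower panels the triangle of AOS 3 sets most of the AOS mean.

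General genes of B and T cells lay higher by smaller amounts, which moved with control 1 and control 3. All 16 general B cell genes had a higher mean with AOS but none had an unadjusted p under 0.05, and their median log2 fold change of 0.15 was -0.04 without control 1. Without control 3 the median was 0.34 and 9 members had an unadjusted p under 0.05. Ms4a1, the antigen CD20, averaged 266 ± 39.0 FPKM with AOS and 259 ± 89.0 FPKM in control (SD, n = 3 each). The germinal centre list differed more: all 12 members were higher, 9 had an unadjusted p under 0.05 (4 without control 3), 9 did not overlap, and the median was 0.63. For HFD against the same 3 control libraries, with no AOS given, the median was 0.31 with 11 of 12 members higher. For HFD+AOS against HFD it was 0.09 with 8 of 12 higher. The general B cell medians were 0.42 for HFD against control, with all 16 higher, and -0.275 for HFD+AOS against HFD, with 0 of 16 higher. S1pr2, which keeps B cells in the germinal centre, averaged 11.7 ± 1.36 FPKM with AOS and 6.89 ± 2.39 FPKM in control, while Bcl6, the factor that defines the state, overlapped at 18.3 ± 1.02 FPKM with AOS and 16.1 ± 1.98 FPKM in control (SD, n = 3 each).

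All 20 T cell genes had a higher mean with AOS, 8 at an unadjusted p under 0.05, with a median log2 fold change of 0.32 that was 0.09 without control 1 and 0.50 without control 3. The number at an unadjusted p under 0.05 was 3 without AOS 1 or control 1, 17 without control 3 and 4 in a fit to the 6 libraries alone. Cd3e, a chain of the T cell receptor complex, was at 41.9, 38.3 and 35.5 FPKM with AOS and 17.3, 29.2 and 34.0 FPKM in control. Control 1 was the low library, and the other control libraries came close to AOS. The 18 activation and inhibitory receptor genes were all higher, 11 at an unadjusted p under 0.05 (7 without AOS 1 and 6 without control 1), and 13 did not overlap. Their median log2 fold change was 0.51 with AOS. For HFD against the same 3 control libraries, with no AOS given, it was 0.53, with all 18 higher. For HFD+AOS against HFD it was -0.05, with 8 of 18 higher. Cxcr3, a chemokine receptor of type 1 T cells, was at 25.1, 15.9 and 17.3 FPKM with AOS and 8.89, 12.1 and 8.03 FPKM in control. Tbx21, the factor T-bet of the same cells, was at 9.78, 7.40 and 10.3 FPKM with AOS and 3.91, 6.35 and 4.82 FPKM in control. Ccl5, a chemokine of cytotoxic cells, averaged 208 ± 37.4 FPKM with AOS and 123 ± 35.1 FPKM in control (SD, n = 3 each). The NK and cytotoxic cell list that holds it differed by less. Of its 16 members, 15 had a higher mean, 5 had an unadjusted p under 0.05 and 3 did not overlap. Its median log2 fold change was 0.14, and 0.09 after scaling by median ratios.

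Neutrophil genes lay far lower with AOS, and the size of the difference moved with the control libraries. All 15 genes of granule-forming precursors had a lower mean with AOS and an unadjusted p under 0.05, but none was without overlap. Their median log2 fold change of -1.88 was -0.87 without control 1 and -2.97 without control 3, and without control 1 no member had an unadjusted p under 0.05. That number was 2 without AOS 1, 5 without AOS 3 and 4 without control 2. It was 0 of 15 in a fit to the 6 libraries alone, so the 15 rest on a spread estimated with the 12 libraries of the other groups. HFD against the same 3 control libraries, with no AOS given, had a median log2 fold change of -1.87 for these genes and -0.84 for those of mature neutrophils, with no member higher in either list. Lcn2, a granule protein that binds bacterial iron carriers, was at 30.3, 82.4 and 45.9 FPKM with AOS and 952, 259 and 42.1 FPKM in control. Control 3 lay inside the AOS range and control 1 far above every library. Of the 15 genes of mature neutrophils, all were lower, 10 at an unadjusted p under 0.05 (6 without AOS 1, 3 without control 1 and 3 in a fit to the 6 libraries alone), and 4 did not overlap. Their median log2 fold change of -0.93 was -0.48 without control 1. Csf3r, the receptor for the growth factor G-CSF, was at 9.80, 10.8 and 14.8 FPKM with AOS and 44.2, 20.04 and 16.5 FPKM in control.

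Red cell genes also lay lower with AOS. All 21 erythroid members had a lower mean, 13 at an unadjusted p under 0.05, and 15 did not overlap, with a median log2 fold change of -0.62. Without control 1 the median was -0.45 and no member had an unadjusted p under 0.05. That number was 7 without AOS 1, 2 without AOS 3 and 8 without control 2, and 17 in a fit to the 6 libraries alone. Tfrc, the transferrin receptor that brings in iron, was at 78.3, 93.5 and 72.6 FPKM with AOS and 180.0, 120 and 104 FPKM in control. Every AOS value lay under every control value, and control 1 was the highest. The 12 genes of haem synthesis were all lower, 4 at an unadjusted p under 0.05 (1 without control 1, 2 without AOS 3 and 8 without control 3), among them Cpox, an enzyme late in the pathway, with 79.2 ± 10.9 FPKM with AOS and 127 ± 23.1 FPKM in control (SD, n = 3 each). The 16 megakaryocyte and platelet genes were all lower too, 7 at an unadjusted p under 0.05 (2 without control 1, 3 without AOS 3, 4 without AOS 1, 16 without control 3 and 2 in a fit to the 6 libraries alone), and their median of -0.50 was -0.14 without control 1 and -0.78 without control 3. HFD against the same controls, without AOS, had medians of -0.59 for these genes and -0.88 for haem synthesis, with no member higher. For HFD+AOS against HFD those medians were 0.11, with 11 of 16 higher, and 0.35, with all 12 higher.

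Genes of other organs were also measured in these libraries. Kap, which encodes the kidney androgen-regulated protein (chr6:133849851-133853762, minus strand, GRCm38), was listed at 0 FPKM in all 3 AOS libraries and at 13.3, 20.1 and 21.0 FPKM in the control libraries. It was listed at 0.15, 0 and 0 FPKM in HFD+AOS and at 27.1, 21.2 and 0.48 FPKM in HFD, and at no more than 0.9 FPKM in the transplant groups. No fold is given against values at 0. Other kidney genes, chosen after these values were seen, were low: Slc34a1, Miox, Umod and Aqp2 did not exceed 0.52 FPKM in any of the 6 libraries. Miox, an enzyme of inositol breakdown in the kidney, was nonetheless listed at 0 FPKM in the 3 AOS libraries and at 0.29, 0.15 and 0.15 FPKM in the control libraries, and in HFD it was at 0.31, 0.23 and 0 FPKM, present in the 2 HFD libraries where Kap was high. Slc34a1, a phosphate transporter of the kidney, was at 0.29, 0.09 and 0.1 FPKM with AOS and 0.27, 0.52 and 0.36 FPKM in control, which overlapped. The part of kidney tissue in the Kap values was not tested.

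The 9 testis genes that were measured all had a lower mean with AOS, 8 at an unadjusted p under 0.05 (5 in a fit to the 6 libraries alone). Their median log2 fold change of -1.94 was -0.98 without control 2, and -2.56 and -4.08 with pseudocounts of 0.5 and 0.1. HFD against the same 3 control libraries, with no AOS given, had a median of -1.85 for these genes, with no member higher. Of the 9, 8 were under 1 FPKM in every AOS library. Prm1, a protamine that packs sperm DNA, was at 0.57, 0.57 and 0 FPKM with AOS and 11.3, 85.6 and 6.56 FPKM in control. In HFD it was at 0.58, 0.86 and 3.47 FPKM. Tnp1, a transition protein of maturing sperm, was at 0, 0 and 0.26 FPKM with AOS and 5.44, 39.5 and 3.47 FPKM in control. Control 2 was by far the highest for both. Genes of the exocrine pancreas, which lies beside the spleen, varied between libraries without separating the groups: Cela2a, an elastase, was at 5.41, 99.9 and 63.0 FPKM with AOS and 243, 38.5 and 0.64 FPKM in control. The liver gene Alb was at 25.2, 14.9 and 2.84 FPKM with AOS and 7.59, 105 and 98.0 FPKM in control. Adipocyte genes lay higher on average with AOS: all 9 members had a higher mean and a median log2 fold change of 0.77, but none had an unadjusted p under 0.05 or was without overlap. That median was 0.12 without control 1, 0.27 without AOS 2 and -0.22 with array weights. Adipoq, the hormone adiponectin of fat cells, was at 7, 20.35 and 10.04 FPKM with AOS and 1.58, 9.81 and 9.13 FPKM in control, where control 1 was the low library. The part of other tissue in the remaining differences was not tested.

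**Figure D4:**
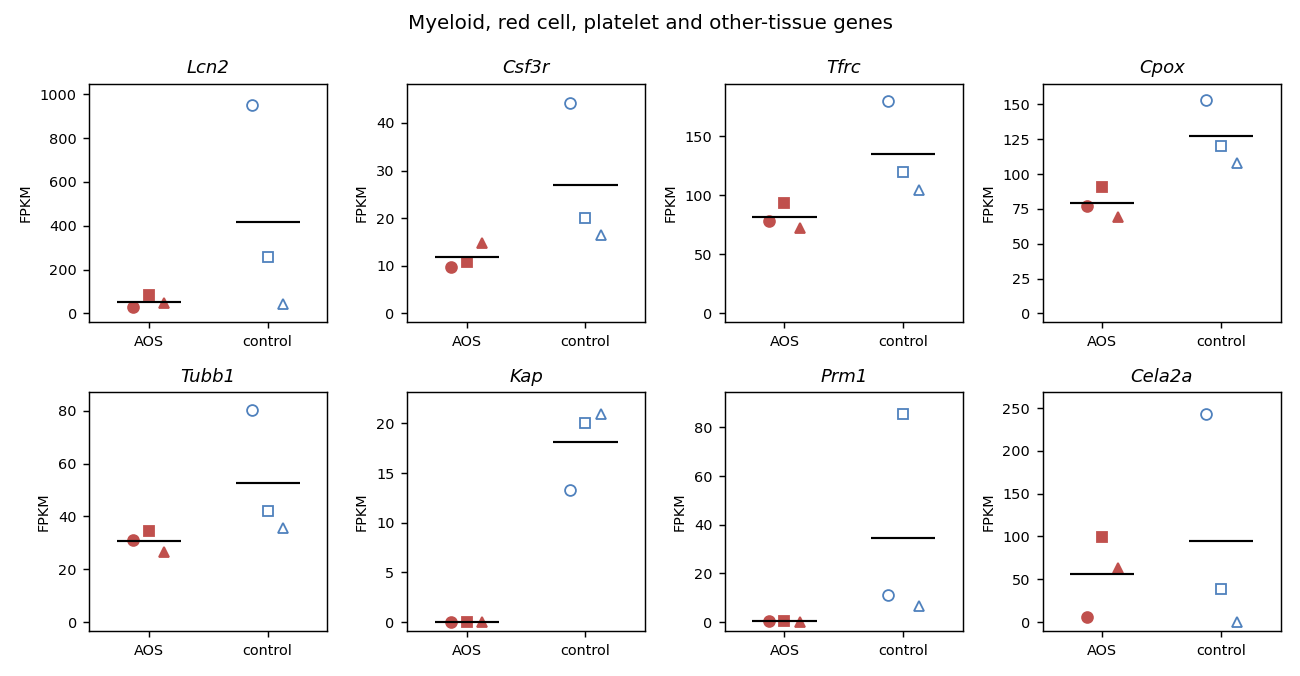
FPKM in each library for neutrophil (Lcn2, Csf3r), red cell (Tfrc, Cpox), platelet (Tubb1), kidney (Kap), testis (Prm1) and exocrine pancreas (Cela2a) genes, with AOS as filled red symbols, control as open blue symbols, replicates 1, 2 and 3 as circle, square and triangle, and the mean as a line. Control 1 is the highest library in the panels for Lcn2, Csf3r, Tfrc, Cpox, Tubb1 and Cela2a, control 2 in that for Prm1, and all AOS values of Kap are at 0.

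Among single genes outside these lists, the smallest unadjusted p belonged to Zfp296, a zinc finger gene on chromosome 7 (chr7:19577287-19580656, plus strand, GRCm38). It was at 9.95, 10.4 and 10.6 FPKM with AOS and 6.55, 6.71 and 6.92 FPKM in control, without overlap. Rilpl2, a regulator of cargo transport at the cilium, was at 25.0, 21.4 and 24.9 FPKM with AOS and 14.7, 16.6 and 15.2 FPKM in control. Among the genes that could be named by fold, the largest positive log2 fold change was that of Gdpd3, a phospholipase of the glycerophosphodiesterase family, at 11.1, 3.44 and 19.7 FPKM with AOS and 0.43, 0.66 and 0.38 FPKM in control. Ccl8, a monocyte chemokine, was at 2.75, 19.1 and 5.32 FPKM with AOS and 0.75, 1.7 and 1.2 FPKM in control. Neither gene overlapped, but the AOS libraries differed widely, with AOS 3 highest for Gdpd3 and AOS 2 for Ccl8.

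Sord, the enzyme that converts sorbitol to fructose, was at 14.9, 15.4 and 12.9 FPKM with AOS and 23.7, 21.1 and 18.1 FPKM in control. It lay lower with AOS, without overlap. Timp3, an inhibitor of matrix proteases, averaged 24.3 ± 2.51 FPKM with AOS and 35.8 ± 3.74 FPKM in control (SD, n = 3 each). The extracellular matrix list that holds it did not lie lower as a whole. Of its 16 members, 7 had a higher mean with AOS and 9 a lower one, with a median log2 fold change of -0.03. At an unadjusted p under 0.05 there was 1 member in each direction. Nr1d1, a repressor of the circadian clock, was at 5.68, 6.09 and 3.15 FPKM with AOS and 1.61, 1.99 and 2.13 FPKM in control, and the hour at which spleens were taken is not given in the labels. Its list, clock genes in phase with Dbp, had 7 of 9 members higher and 2 at an unadjusted p under 0.05. The median log2 fold change of 0.15 was 0.02 without control 1. For the 4 clock genes in phase with Arntl the median was -0.01, with 0 at an unadjusted p under 0.05.

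The same dose of AOS was also given on the high fat diet, and HFD+AOS against HFD shares no library with AOS against control. No gene passed adjusted p 0.05 for the difference between the 2 effects (limma interaction, 12969 genes), and 2058 (15.9%) had an unadjusted p under 0.05. With array weights, whose limits are given above, 6205 genes passed the adjusted threshold. The plasma cell list lay higher in both settings: its median log2 fold change was 0.84 for HFD+AOS against HFD, with all 15 members higher where 41.9% of tested genes were, beside 0.87 off the diet. Txndc5 had a log2 fold change of 0.68 on the diet and 0.87 off it, each with a standard error of 0.17. Nr1d1 had one of 0.95 on the diet and 1.00 off it, each with a standard error of 0.22. Its list, clock genes in phase with Dbp, had a median of 0.30 on the diet, with 6 of 9 members higher, and 0.15 off it. The type I interferon list also lay higher in both settings, with a median of 0.45 on the diet and 0.57 off it. On the diet 28 of its 32 members were higher. Its list mean was 5.82, 5.22 and 5.25 in the HFD+AOS libraries and 4.93, 4.91 and 5.09 in the HFD libraries. For HFD against control, with no AOS given, its median was 0.48, with 27 of 32 members higher.

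Other lists had different medians on the diet. For class I presentation the median was 0.00 for HFD+AOS against HFD and 0.52 for AOS against control. For T cells it was -0.33 on the diet, with 1 of 20 members higher, and 0.32 off it. For erythroid genes it was 0.49 on the diet, with all 21 members higher, and -0.62 off it. HFD against control, which shares the 3 control libraries with AOS against control and the 3 HFD libraries with HFD+AOS against HFD, had medians of 0.45 for class I presentation with all 18 members higher, 0.68 for T cells with all 20 higher, and -1.09 for erythroid genes with all 21 lower. For plasma cells that median was 0.31, with 13 of 15 members higher. The share of all genes that were higher in HFD against control is not given here. The counts of members higher or lower in HFD, here and above, therefore have no baseline. Tfrc had an interaction of -1.02 on the log2 scale with a standard error of 0.31 (limma adjusted p = 0.221). Over all members, the sign was the same in both settings for 45.1%, and for 51.7% of those with an unadjusted p under 0.05 off the diet.

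**Figure D5:**
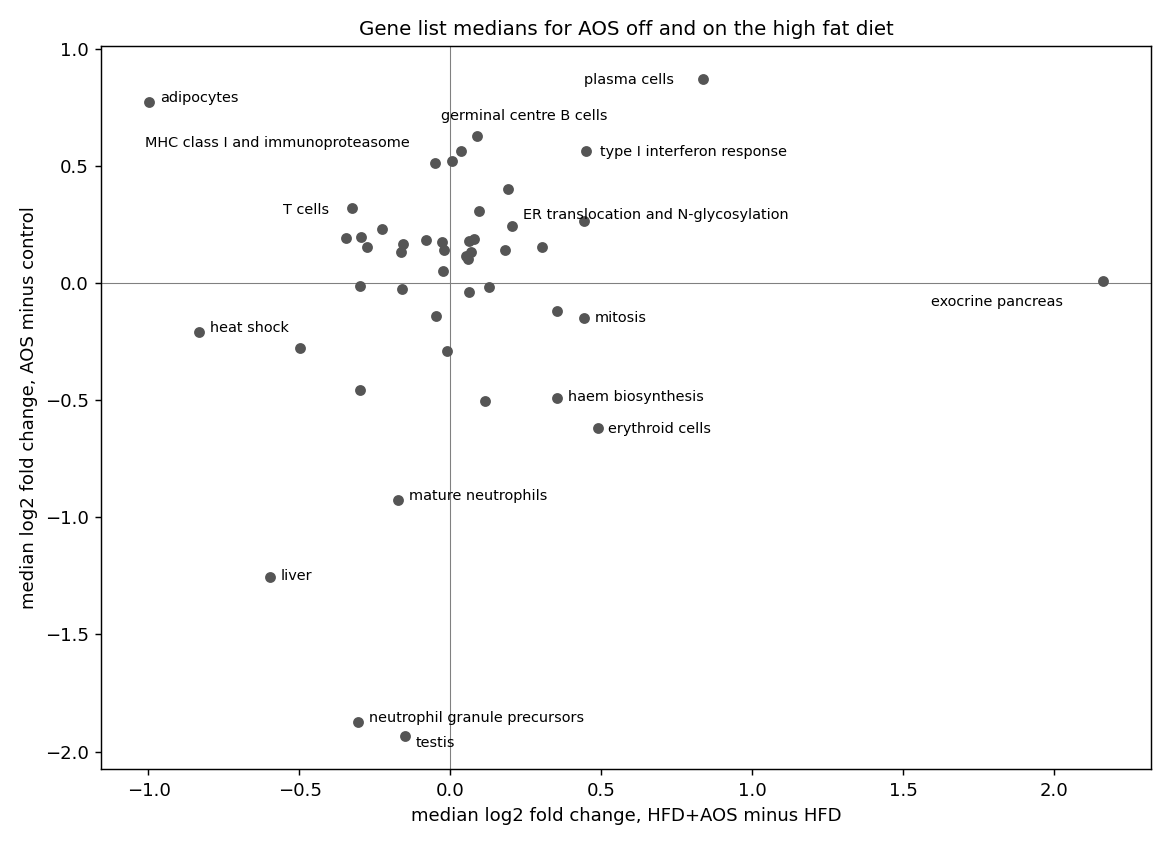
Median log2 fold change of each of the 48 gene lists for AOS minus control (vertical axis) and for HFD+AOS minus HFD (horizontal axis), 1 point a list, with some lists named. The plasma cell list is high on both axes, class I presentation is at 0.52 and 0.00, and the erythroid list is at -0.62 and 0.49.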

How the data were processed

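RNA of 18 spleen libraries was sequenced, and the 3 AOS and 3 control libraries are described here. Per the submitters' processing notes, reads were aligned with Bowtie 0.12.2 to mm10. The authors deposited one table with no stated unit, taken here as FPKM because the sum of value times transcript length varied by 1.49% between libraries, against 7.55% for plain totals (coefficient of variation). RPKM would look the same. The counting program is not given in the sources used here, nor is the annotation. Depth and counting error are unknown. Summed FPKM was 696466 to 743098 in AOS and 673428 to 831448 in control libraries. No pair of the 6 libraries shared more than 0.613% of member values, so none was counted as a repeat.

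Values were analysed as log2(FPKM + 1), which understates differences of low genes. The 12969 genes whose mean reached 1 FPKM in 1 or more of the 6 groups entered 1 fit to all 18 libraries (R 4.3.3, limma 3.58.1 with statmod 1.5.0, eBayes with a trend and robust), and p-values were adjusted by Benjamini and Hochberg. Figures were drawn with matplotlib 3.10.9, and summaries made with pandas 2.3.3 and numpy 2.4.6 in Python 3.11.15. The fit was tested on simulated data. The members and the 48 gene lists were chosen with earlier results of these data known, and no list was tested as a set.

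Named genes were, among members without overlap that reached 5 FPKM on average in the higher group, the 10 with the smallest p and the 8 with the largest fold in each direction, plus the 2 smallest p and the first 4 genes of each list; only some are printed, and some are not reported here. Promoters were to be those of up to 6 list members with a motif and the smallest p. After the matches were seen, this was narrowed to 3 whose match lies before the start and where a GENCODE vM21 transcript starts in the window, which passed over Psmb8 and Psme1, and Creld2 and Syvn1 were added as the ERSE members with the smallest p. Positions are from GENCODE vM21. Alternatives were other pseudocounts, filters, scalings, fits and weights, a replicate block and leaving out each library. List counts without single libraries were added after seeing the data.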

Additional observations from a re-analysis of the deposited data

Results flagged for a closer look

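Among the 280 genes chosen for naming, 4 had all 3 AOS values above all 3 control values while all 3 HFD+AOS values lay below all 3 HFD values. They are given as the interaction, the log2 fold change of AOS against control minus that of HFD+AOS against HFD. It was 0.87 for Fas, a death receptor that marks germinal centre B cells, 0.83 for Cd4, the co-receptor of helper T cells, 0.88 for Cd3g, a chain of the T cell receptor complex, and 0.67 for Tnf, an inflammatory cytokine. Fas averaged 16.7 ± 0.70 FPKM with AOS and 11.4 ± 1.99 FPKM in control, and 13.8 ± 1.02 FPKM with HFD+AOS and 17.7 ± 1.93 FPKM with HFD (SD, n = 3 each). Cd4 averaged 53.0 ± 2.59 FPKM with AOS and 38.2 ± 11.2 FPKM in control, and 48.8 ± 2.37 FPKM with HFD+AOS and 61.2 ± 3.74 FPKM with HFD (SD, n = 3 each). In the test of the difference itself, none of the 4 passed (limma interaction, adjusted p = 0.221 for each). The 280 were chosen in part by a small p or no overlap in AOS against control. The share of all members with this pattern was not counted, so the number 4 has no baseline.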

How the results depend on the processing

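Absence of calls at adjusted p 0.05 held under both other pseudocounts, both filters, all 3 scalings and the plain variance fit, and not under the settings named next. Fits to the 6 libraries alone and with a replicate block gave 0 higher and 1 lower (Kap). At an unadjusted p under 0.05 the 6-library fit gave 836 higher and 390 lower, and the replicate block gave 734 higher and 458 lower. Same-numbered libraries correlated at -0.35, 0.08 and 0.00 in their deviations from the group means, and differently numbered ones at -0.32 to 0.33. With 3 libraries a group, these values cannot tell whether the replicate numbers pair the samples. With array weights the counts were 2907 higher and 1961 lower at adjusted p, 3671 higher and 2470 lower at unadjusted p, and 6205 for the interaction. Those weights came from an estimation that stopped before it converged and gave control 2 a weight of 31.8, against 0.168 for control 1 and 0.178 for control 3, so this setting rests on 1 control library. Leaving out 1 library gave 0 to 91 higher and 0 to 152 lower at adjusted p: 65 and 4 without AOS 2, 11 and 3 without control 2, 91 and 152 without control 3, and 0 without AOS 1, AOS 3 or control 1. At unadjusted p it gave 807 to 2064 higher and 328 to 1083 lower, and among groups that did not overlap 1811 to 3857 higher and 800 to 1716 lower, where fewer libraries overlap less by construction. Scaling by median ratios gave 790 higher at unadjusted p and 926 above and 996 below without overlap. Scaling without haemoglobin gave 775 higher at unadjusted p and 853 above and 1054 below without overlap. The cause was not tested. Of 280 named genes, 8 had the other sign under each of these scalings, 20 with array weights and 26 without control 1. Of 48 list medians, 2 had the other sign under each of these scalings, 4 with array weights, 5 without control 1 and 7 without control 3. With the replicate block, 0 of 15 granule precursor genes and 9 of 32 type I interferon genes had an unadjusted p under 0.05. Depth is unknown, so the counting error of low values cannot be estimated.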

Other observations

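Of 38 ribosomal protein genes, 37 had a higher mean with AOS and 20 had an unadjusted p under 0.05, with a median log2 fold change of 0.17 that was 0.11 after scaling by median ratios, where 3 had an unadjusted p under 0.05, and 0.06 after quantile normalization, where 33 had a higher mean and 8 had an unadjusted p under 0.05. That number was 9 without AOS 1 or control 1, 6 without AOS 3 and 11 without control 3. After quantile normalization 54.6% of all members had a positive log2 fold change. At an unadjusted p under 0.05, 1033 members were then higher and 816 lower. Of 25 mitosis genes, 20 had a lower mean with AOS and 1 had an unadjusted p under 0.05, and the median of -0.15 was 0.03 without control 1, and 9 had an unadjusted p under 0.05 without control 3. Of 18 Nrf2 response genes, 15 had a lower mean with AOS, 5 of them at an unadjusted p under 0.05 (3 without AOS 1 or AOS 3, 2 without control 1 and 9 without control 3). The other 3 had a higher mean, 2 of them at an unadjusted p under 0.05. Without overlap, 4 lay below control and 2 above it. Gclc, the rate-limiting enzyme of glutathione synthesis, was at 22.8, 25.4 and 21.2 FPKM with AOS and 31.8, 29.4 and 29.6 FPKM in control, without overlap. Of 12 heat shock genes, 10 had a lower mean with AOS and none had an unadjusted p under 0.05. Hspa1a, an inducible heat shock chaperone, was at 5.65, 5.85 and 11.3 FPKM with AOS and 6.48, 21.0 and 49.8 FPKM in control. Fscn1, an actin-bundling protein of mature dendritic cells, was at 32.2, 29.0 and 32.9 FPKM with AOS and 14.4, 20.6 and 16.1 FPKM in control, without overlap. The dendritic cell list that holds it was mixed. Of its 14 members, 10 had a higher mean and 4 a lower one, and 3 had an unadjusted p under 0.05. Its median log2 fold change of 0.17 was 0.02 without control 1.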
